A study of Mus musculus with 6 samples.

Results

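Chemokine ligands are the small secreted proteins that steer leukocytes through tissue. The members here were all rows of the expression table whose symbol is Ccl, Cxcl, Cx3cl or Xcl followed by a number and at most 1 letter, which gave 39 of 21959 genes. They were measured by RNA sequencing of mouse white adipose tissue, which the series text places in the gonadal depot. There were 3 wild-type (WT) libraries, replicates 10, 11 and 12, and 3 libraries of the genotype labelled ++Oxtr, replicates 7, 8 and 9. The labels give no construct, promoter, age, sex or treatment for either group, and do not say that replicates are separate animals, so a p-value here reflects only how far these libraries vary, and that variation may be technical. The series addresses how the oxytocin receptor acts on fat development and energy use.

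A chemokine binds a G protein-coupled receptor on a leukocyte and draws the cell toward higher concentrations of the ligand. Homeostatic ligands are made all the time, mostly by stromal, endothelial and epithelial cells, and place resident cells, whereas inflammatory ligands are induced by cytokines and microbial products and recruit monocytes, neutrophils and T cells. In fat they are best known for monocyte recruitment and macrophage accumulation in obesity. By textbook role 10 members were set down as homeostatic, 20 as inflammatory and 8 as mixed, meaning that they serve both roles or are known mainly at epithelia. Ccl21d, a copy in the Ccl21 group, was in none of the 3 classes. The classes describe the usual biology of the ligand, not the state of these tissues.

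The regulatory sequence just upstream of a ligand is shown here for 3 inflammatory ligands with NF-kB motifs, Cxcl1, Cxcl2 and Cxcl10, and for Cxcl12, the homeostatic ligand with the most reads, which has none. They were chosen with the values known: these 3 were highest in ++Oxtr replicate 9, whereas Ccl9, which also has the motif, was highest in WT replicate 10, and Ccl2, Ccl5 and Ccl7, highest in ++Oxtr replicate 9 too, had no window in the table. Each line gives the 250 bases before the annotated start, 5′ to 3′ on the gene's strand, from RefSeq on GRCm38.p6, with matches to the NF-kB consensus or to the interferon response core (TTTC, any 2 bases, TTTC), searched on both strands, in capitals.
Cxcl1: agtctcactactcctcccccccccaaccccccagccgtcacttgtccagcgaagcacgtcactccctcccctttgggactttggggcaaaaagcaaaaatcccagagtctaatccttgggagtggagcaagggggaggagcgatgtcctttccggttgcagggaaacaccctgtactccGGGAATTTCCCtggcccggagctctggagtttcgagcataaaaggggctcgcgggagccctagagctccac
Cxcl2: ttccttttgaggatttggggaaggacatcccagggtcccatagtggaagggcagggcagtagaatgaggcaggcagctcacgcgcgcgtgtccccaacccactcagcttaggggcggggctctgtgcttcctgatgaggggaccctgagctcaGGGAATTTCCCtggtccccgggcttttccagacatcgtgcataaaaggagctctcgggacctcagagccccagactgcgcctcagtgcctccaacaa
Cxcl10: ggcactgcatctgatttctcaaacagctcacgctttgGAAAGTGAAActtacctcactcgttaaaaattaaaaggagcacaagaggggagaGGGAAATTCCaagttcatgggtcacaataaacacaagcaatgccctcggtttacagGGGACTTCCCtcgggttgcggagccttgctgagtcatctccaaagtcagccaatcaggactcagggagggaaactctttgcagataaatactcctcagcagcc
Cxcl12: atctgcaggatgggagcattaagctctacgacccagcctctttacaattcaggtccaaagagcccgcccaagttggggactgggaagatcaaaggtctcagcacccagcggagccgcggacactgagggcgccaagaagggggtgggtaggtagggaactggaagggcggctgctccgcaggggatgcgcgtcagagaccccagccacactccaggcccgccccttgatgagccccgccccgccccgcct
These windows lie at chr5:90890995-90891244 on the plus strand for Cxcl1, chr5:90903649-90903898 on the plus strand for Cxcl2, chr5:92348890-92349139 on the minus strand for Cxcl10, and chr6:117168285-117168534 on the plus strand for Cxcl12. In Cxcl1 and Cxcl2 the capitals hold the NF-kB consensus on both strands, the matches overlapping in all but 1 base. In Cxcl10 the first capitals are the interferon response core read on the opposite strand, and the later ones are NF-kB matches.

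RefSeq held such a window, matched by symbol, for 28 of the 39 members. The windows of Ccl21b (chr4:42172870-42173119) and Ccl1 (chr11:82179813-82180062) lie far from the GENCODE M21 starts, 42255767 and, on the minus strand, 82305690. Both are counted here, and neither held a motif named below. The NF-kB consensus was in the windows of Ccl9, Ccl20, Cxcl1, Cxcl2, Cxcl3 and Cxcl10, which is 6 of 11 inflammatory, 0 of 10 homeostatic and 0 of 6 mixed ligands, beside 3.90% of all 32851 windows of the same length. The interferon response core was in Ccl19, Cxcl10 and Cxcl14, beside 2.98% of all windows. The letters TATAAA, on either strand and anywhere in the window, were in 8 members (Ccl8, Ccl9, Ccl12, Cx3cl1, Cxcl3, Cxcl9, Cxcl13 and Cxcl15), beside 12.4% of all windows. These letters ended 21 to 40 bases before the start in Ccl8, Ccl12, Cxcl3, Cxcl13 and Cxcl15. In Ccl9 and Cxcl9 they ended 86 to 218 bases before it, and in Cx3cl1 directly at it. A match is a description of the letters only, and Ccl20, with a match, had no read. Ccl2, Ccl4, Ccl5, Ccl7, Ccl11, Ccl24, Ccl26, Cxcl5, Cxcl11, Cxcl16 and Cxcl17 were not matched in the table.

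Total counts per library ran from 14314517 to 19186696, and the 39 members took 0.0675% to 0.0961% of them. Oxtr, the oxytocin receptor that the genotype is named for, was at 22, 61.4 and 45.2 CPM (counts scaled to library size, with trimmed-mean factors) in WT, in the order of replicates 10, 11 and 12 kept throughout, and at 90.7, 89.7 and 81.8 CPM in ++Oxtr, in the order 7, 8 and 9. Its groups did not overlap (log2 fold change 1.03, SE 0.34), and its adjusted p was 0.469 in edgeR and 0.0573 in DESeq2. Each adipocyte marker on the list (Adipoq, Plin1, Lep, Cidec, Lipe, Fabp4 and Pnpla2) was read in all 6 libraries. Libraries differed in other tissue too: 6 markers of multiciliated epithelium summed to 7.31, 7.21 and 20.6 CPM in WT and to 9.08, 81.4 and 22.6 CPM in ++Oxtr, and 9 T and natural killer cell markers to 15.9, 20.3 and 13.3 CPM in WT and 11.1, 11 and 48.4 CPM in ++Oxtr. In bulk tissue, fewer cells of a type and less RNA per cell cannot be told apart.

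A few ligands made up most of the chemokine RNA of this fat. On the FPKM scale (reads scaled to gene length and library size), which allows genes of different length to be compared, the mean level over the 6 libraries was 108.3 for Ccl6, 51.9 for Ccl11, 40.4 for Ccl21a, 37.5 for Ccl9 and 33.7 for Cxcl12. Ccl6 and Ccl9 are ligands of Ccr1 made by myeloid cells, Ccl11 is the eosinophil attractant eotaxin, Ccl21a is made by lymphatic endothelium and binds Ccr7, and Cxcl12 is the stromal ligand of Cxcr4. Ccl6 was above the next ligand in each library with no overlap of their ranges, at 70.5 to 145.7 FPKM against 39.8 to 63.1 for Ccl11. The ranges of Ccl11, Ccl21a, Ccl9 and Cxcl12 overlapped each with its neighbour in that order. Cxcl12 and the next ligand down, the interferon-induced Cxcl9, were separated, at 29.8 to 37.4 against 10.9 to 18.2 FPKM. Among the ligands tested for a difference between the groups, the range of each ligand below Cxcl9 overlapped that of the next, apart from a gap between Ccl25 and Ccl22. The untested Ccl19, Ccl17 and Ccl4 had means between the means of Ccl25 and Ccl22.

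**Figure D1:**
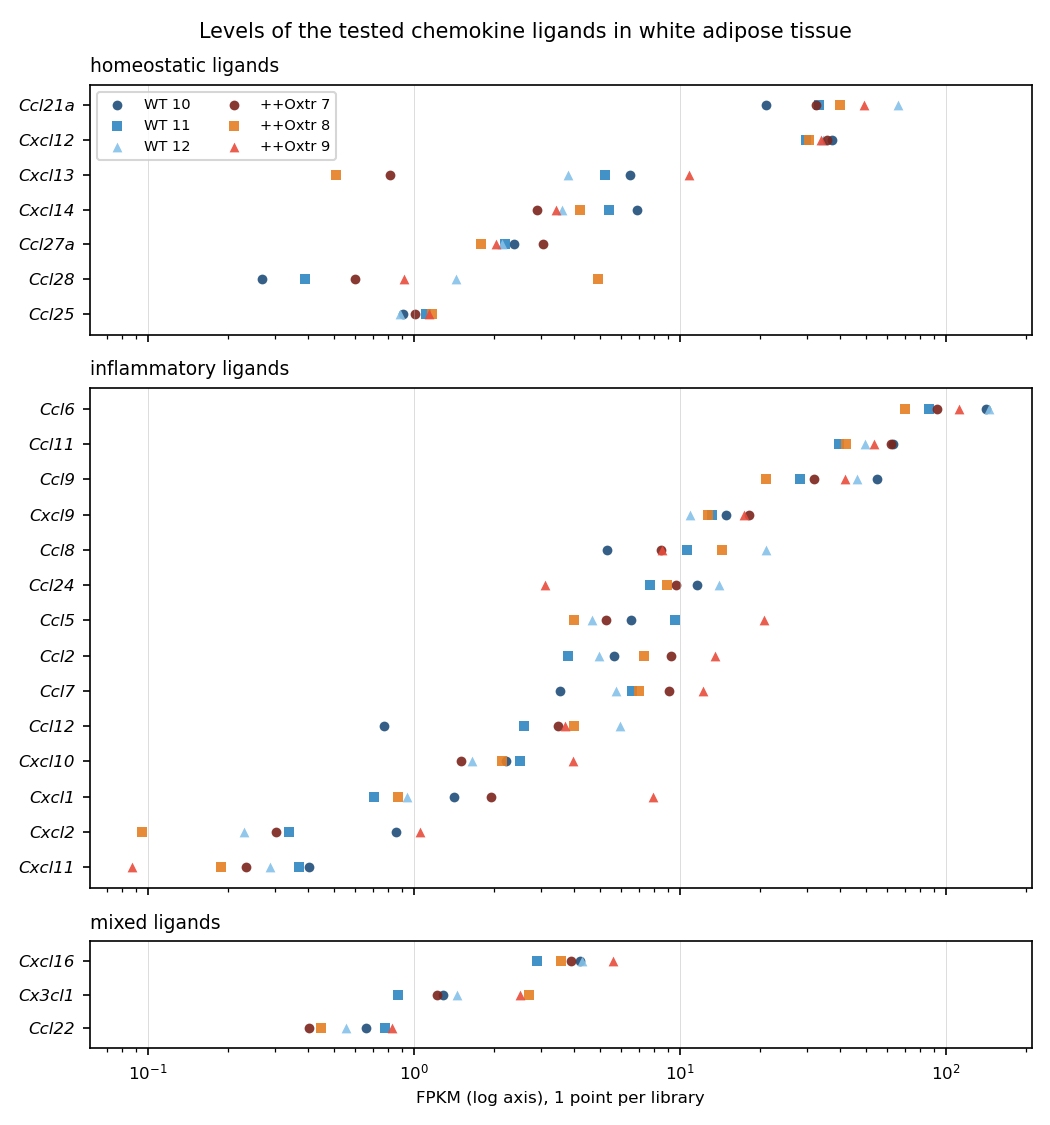
FPKM on a log axis for the 24 ligands that passed the filter on low counts, 1 point per library, by class and ordered by mean level. Ccl6, Ccl11 and Ccl9 lead the inflammatory class and Ccl21a and Cxcl12 the homeostatic class, while Cxcl13, Ccl28, Ccl5 and Cxcl1 spread widely between libraries.

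On the FPKM scale, ligands classed as inflammatory made up most of the summed ligand level in every library. Their share of the summed FPKM was 79.1%, 72.0% and 72.4% in WT against 75.4%, 68.4% and 72.3% in ++Oxtr. Homeostatic ligands held 18.9%, 26.3% and 26.0% in WT against 22.9%, 29.2% and 25.1% in ++Oxtr. Both shares overlapped between the groups. Most of the inflammatory share came from Ccl6, Ccl11 and Ccl9. They held 35.6%, 15.8% and 13.9% in WT replicate 10 and 24.6%, 14.8% and 7.36% in ++Oxtr replicate 8. Without these ligands the inflammatory share would lie below the homeostatic share in each library, so the majority depends on how they are classed. Summed as CPM, which does not correct for gene length, the classes lay closer: in ++Oxtr replicate 8 the inflammatory ligands summed to 325 CPM and the homeostatic to 335 CPM, and in WT replicate 11 to 367 and 302 CPM. Ccl6 alone held 29.1% to 35.6% of the summed FPKM in WT and 24.6% to 27.4% in ++Oxtr, so in this share the groups did not overlap, although the CPM of the gene itself did. This was not particular to Ccl6. The shares of Ccl2, Ccl7, Cxcl16 and Cx3cl1 did not overlap either and were higher in ++Oxtr. Such shares were not computed for genes outside the family. The mixed class held 1.63% to 2.60%.

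Of the 39 ligands, 24 passed the filter on low counts, and 5 had no read in any library. These 5 were Ccl20, the Ccr6 ligand of epithelia, Cxcl15, known from lung, and Ccl21b, Ccl21d and Ccl27b, which are copies near Ccl21a and Ccl27a. At these depths 0 reads still permit a level of 0.156 to 0.210 CPM (3 counts), a limit for counting error only. How reads shared between near-identical copies were placed is not given in the sources used here, so the values of Ccl21a and Ccl27a may hold reads of the copies.

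Another 10 ligands were barely detected, with a mean under 1 FPKM. Ccl3, a macrophage inflammatory protein, had 2, 0 and 3 reads in WT and none in ++Oxtr, and Ccl26 had 2, 1 and 0 reads in WT and none in ++Oxtr. Ccl4, the neighbour of Ccl3, had 17, 4 and 9 reads in WT and 0, 1 and 15 in ++Oxtr. Ccl17, a ligand of Ccr4 made by dendritic cells, had 13, 4 and 4 reads in WT and 3, 1 and 14 in ++Oxtr. Ccl19, which shares Ccr7 with Ccl21a, had 3, 4 and 6 reads in WT and 13, 3 and 47 in ++Oxtr, so 1 library held most of them. Cxcl5 had 9 of its 11 reads in ++Oxtr replicate 9. For Ccl1, Cxcl3, Cxcl17 and Xcl1 no library had more than 3 reads. These 10 were too low to be tested.

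Among the tested ligands, Cxcl12 had the narrowest interval for the difference between the groups. It was at 306, 242 and 272 CPM in WT and at 298, 254 and 283 CPM in ++Oxtr, with groups that overlapped and means of 273 ± 31.9 and 278 ± 22.6 CPM (SD, n = 3). The log2 fold change of ++Oxtr over WT was 0.03 (95% interval -0.24 to 0.30), and its edgeR adjusted p was 0.968. Cxcr4, its signalling receptor, was at 15.0 ± 2.39 and 14.7 ± 5.06 CPM, and Ackr3, a receptor that binds and removes Cxcl12, was at 83.7, 70.5 and 84.8 CPM in WT and 81.3, 67.0 and 62.6 CPM in ++Oxtr.

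Ccl21a was at 18.3, 28.8 and 55.4 CPM in WT and 28.8, 35.3 and 43.6 CPM in ++Oxtr, so the WT libraries spanned the ++Oxtr ones. Its log2 fold change was 0.07 (95% interval -0.88 to 1.02). The 5 lymphatic endothelium markers (Prox1, Flt4, Pdpn, Mmrn1 and Reln) summed to 71.6, 90.2 and 126 CPM in WT, in the same order as Ccl21a, and to 88.3, 82.6 and 93.1 CPM in ++Oxtr. No marker of that list was at 0, and its part in the Ccl21a values was not tested. Ccr7, the receptor, was at 1.53, 1.46 and 0.983 CPM in WT and 1.38, 1.32 and 3.98 CPM in ++Oxtr.

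Cxcl14, a ligand of barrier tissues and stroma, was at 12.6, 9.85 and 6.36 CPM in WT and at 5.42, 7.77 and 6.34 CPM in ++Oxtr, where replicate 7 lay below the WT libraries and replicate 9 was level with the lowest of them. Its log2 fold change was -0.56 (95% interval -1.21 to 0.08; edgeR adjusted p = 0.598). Ccl25, the Ccr9 ligand of thymus and gut, was at 6.78, 8.18 and 6.36 CPM in WT and 7.65, 8.83 and 8.64 CPM in ++Oxtr. Ccl27a, a skin ligand of Ccr10, was at 5.66, 5.20 and 4.92 CPM in WT and 7.38, 4.28 and 4.93 CPM in ++Oxtr. Both overlapped between the groups, and 204 exonic bases of Ccl25 and 8 of Ccl27a are shared with a gene on the opposite strand (Elavl1 and Il11ra1), whose reads cannot be told apart without strand.

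Cxcl13, the B cell attractant that binds Cxcr5, split the ++Oxtr libraries. It was at 7.49, 5.97 and 4.19 CPM in WT, at 0.956 and 0.593 CPM in ++Oxtr replicates 7 and 8, and at 12.7 CPM in ++Oxtr replicate 9. Thus 2 ++Oxtr libraries lay below all WT libraries and 1 lay above them. The log2 fold change was -0.32 (SE 1.06) over all libraries and -2.90 (SE 0.42) without ++Oxtr replicate 9, where the edgeR adjusted p was 0.169 and that of DESeq2 was 1.80e-06. That DESeq2 fit was added after the data were seen and leaves out the 1 ++Oxtr library above WT. No difference between the groups follows from its p. The 7 B cell markers summed to 11.8, 12.1 and 7.34 CPM in WT and to 5.15, 5.34 and 15.2 CPM in ++Oxtr, so the library with the most Cxcl13 also had the most B cell marker RNA, and the 2 with the least had the least. None of these 7 markers was at 0 in any library, and their part in the Cxcl13 values was not tested. Cxcr5 was at 0.459 to 1.04 CPM in WT and 0.159 to 0.472 CPM in ++Oxtr and did not pass the filter.

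Ccl28, a mucosal epithelial ligand of Ccr10 and Ccr3, had most of its reads in 1 library. It was at 1.30, 1.87 and 6.75 CPM in WT and at 2.98, 24.0 and 4.52 CPM in ++Oxtr, with ++Oxtr replicate 8 far above the others. Its log2 fold change was 1.67 (SE 0.97; edgeR adjusted p = 0.662), and without ++Oxtr replicate 8 it was 0.18 (SE 0.71). The same library had the most RNA of multiciliated epithelium markers, at 81.4 CPM against 7.21 to 22.6 in the others, and the libraries with the next highest Ccl28, WT replicate 12 and ++Oxtr replicate 9, were also next in those markers. All 6 of these markers (Foxj1, Tekt1, Rsph1, Dnah5, Ccdc39 and Cfap126) had log2 fold changes above 0. Rsph1, a radial spoke protein of cilia, was the 1 of them with an unadjusted edgeR p under 0.05, beside 4.44% of all genes on the higher side. Its values were 0.472, 0.486 and 0.787 CPM in WT and 0.584, 6.59 and 1.75 CPM in ++Oxtr. Foxj1 and Dnah5 were at 0 in at least 1 WT library, and the part of such cells in the Ccl28 values was not tested.

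**Figure D2:**
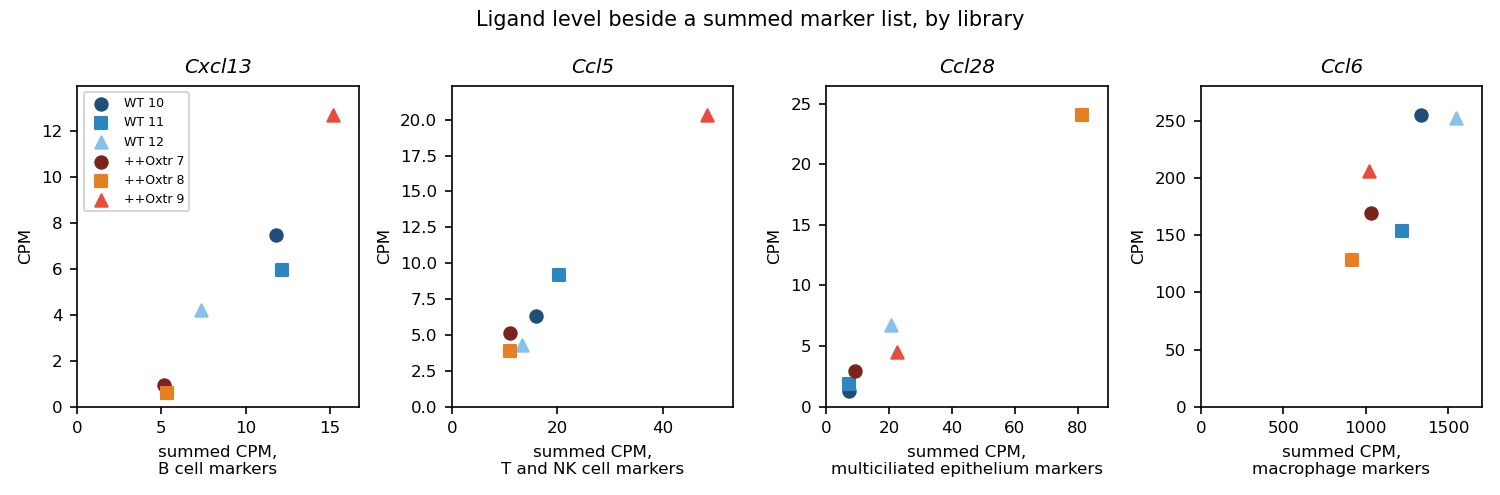
CPM of 4 ligands (vertical axes) against the summed CPM of a marker list (horizontal axes), 1 point per library. Cxcl13 and Ccl5 are highest in ++Oxtr replicate 9, the library with the highest B cell and T and NK cell sums. Ccl28 is highest in ++Oxtr replicate 8, the library with the highest epithelial sum. Ccl6 is highest in WT replicates 10 and 12, the libraries with the highest macrophage sums. WT replicate 11 has a higher macrophage sum than each ++Oxtr library but less Ccl6 than ++Oxtr replicates 7 and 9.

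Among the inflammatory ligands the groups separated upward in Ccl2 and Ccl7, the monocyte attractants that act through Ccr2 and lie next to each other on chromosome 11. Ccl2 (GRCm38 chromosome 11, 82035571 to 82037453) was at 6.43, 4.30 and 5.44 CPM in WT and at 10.8, 8.43 and 15.7 CPM in ++Oxtr. Each ++Oxtr library was above each WT library, with means of 5.39 ± 1.06 and 11.6 ± 3.72 CPM (SD, n = 3). The level was 2.15-fold higher in ++Oxtr, a log2 fold change of 1.11 (SE 0.27, 95% interval 0.48 to 1.74). The edgeR adjusted p over all 13566 genes was 0.362, so Ccl2 did not pass the main test, while DESeq2 passed it with an adjusted p of 0.0310. An exact 2-sided permutation test gave p = 0.1, which is the floor for 3 libraries against 3.

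Ccl7 (GRCm38 chromosome 11, 82045712 to 82047525) was at 2.83, 5.27 and 4.46 CPM in WT and at 7.44, 5.67 and 9.99 CPM in ++Oxtr. The groups again did not overlap, though ++Oxtr replicate 8 lay close to WT replicate 11. Its log2 fold change was 0.88 (SE 0.31), and neither edgeR (adjusted p = 0.482) nor DESeq2 (adjusted p = 0.268) passed it. Leaving out any 1 library kept both ligands on the higher side in edgeR, at 0.83 to 1.29 for Ccl2 and 0.65 to 1.08 for Ccl7. DESeq2 fits with 1 library left out were added after the data were seen. The DESeq2 call on Ccl2 was lost without WT replicate 11 (adjusted p = 0.231), WT replicate 12 (0.187), ++Oxtr replicate 7 (0.0826) or ++Oxtr replicate 9 (0.188), and held without WT replicate 10 (0.0478) or ++Oxtr replicate 8 (0.00941). Ccr2, their receptor on monocytes, was at 27.7, 50.01 and 53.0 CPM in WT and 32.8, 32.8 and 39.8 CPM in ++Oxtr, inside the WT range. The 10 macrophage markers all had log2 fold changes below 0 (median -0.46), and their sum was 1218 to 1550 CPM in WT and 918 to 1035 CPM in ++Oxtr, so Ccl2 and macrophage marker RNA lay on opposite sides.

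The rest of that chromosome 11 cluster did not separate. Ccl11, eotaxin, was at 68.2, 42.8 and 52.0 CPM in WT and 69.0, 46.3 and 59.4 CPM in ++Oxtr, with a log2 fold change of 0.10 (95% interval -0.39 to 0.58). Ccl12, another Ccr2 ligand, was at 0.413, 1.39 and 3.08 CPM in WT and 1.91, 2.17 and 2.02 CPM in ++Oxtr, and Ccl8 was at 2.71, 5.41 and 10.4 CPM in WT and 4.41, 7.44 and 4.45 CPM in ++Oxtr. In these 2 ligands the WT libraries differed more among themselves than the ++Oxtr libraries did. Of the 5 tested ligands in this cluster, 4 had a log2 fold change above 0. Ccr3, the receptor of eotaxin, was at 1.59, 2.15 and 4.72 CPM in WT and 1.49, 2.37 and 1.76 CPM in ++Oxtr.

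**Figure D3:**
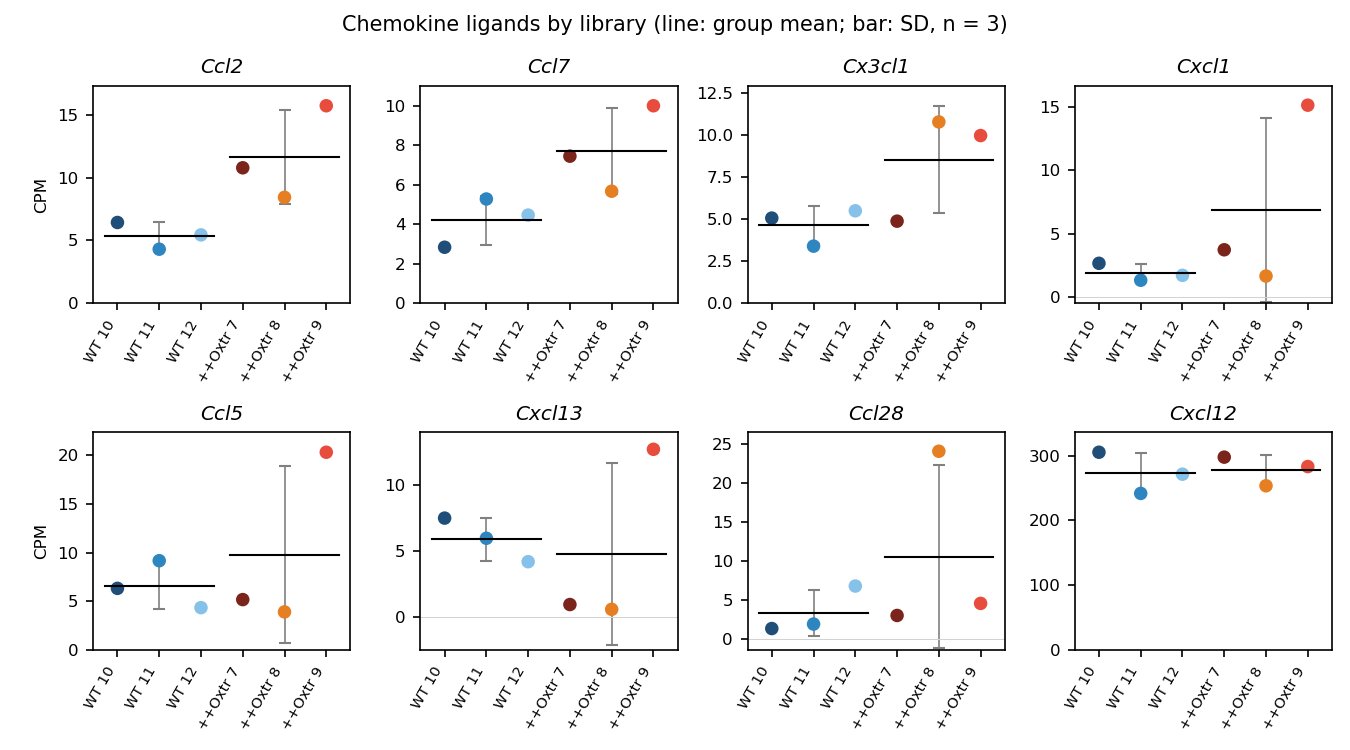
CPM of 8 ligands in each library, with the group mean as a line and the SD over 3 libraries as a bar. Ccl2 and Ccl7 have no overlap between the groups, in Cxcl1, Ccl5 and Cxcl13 ++Oxtr replicate 9 stands highest, in Ccl28 ++Oxtr replicate 8 does, and Cxcl12 is level across libraries.

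The second chromosome 11 cluster holds Ccl6 and Ccl9. Ccl6 was at 255, 154 and 252 CPM in WT and at 170, 128 and 206 CPM in ++Oxtr, with a log2 fold change of -0.39 (95% interval -0.97 to 0.18). Ccl9 was at 169, 85.4 and 137 CPM in WT and at 99.4, 64.9 and 130 CPM in ++Oxtr, with a log2 fold change of -0.41 (95% interval -1.19 to 0.37). Both overlapped between the groups and ranked the libraries alike within each group, with replicates 10 and 9 at the top and 11 and 8 at the bottom. Ccr1, their receptor, was at 11.6 ± 4.31 CPM in WT and 12.5 ± 0.679 CPM in ++Oxtr (SD, n = 3).

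Ccl24, eotaxin-2, which resident macrophages make, was at 15.0, 9.92 and 17.6 CPM in WT and at 12.8, 11.7 and 4.12 CPM in ++Oxtr, with ++Oxtr replicate 9 the lowest. Pf4, a platelet and macrophage chemokine whose symbol falls outside the pattern, was at 43.0, 34.5 and 41.9 CPM in WT and at 35.6, 28.1 and 27.0 CPM in ++Oxtr (log2 fold change -0.40, SE 0.14; edgeR adjusted p = 0.490). Ppbp, the other such chemokine, overlapped at 0.655 to 2.01 and 1.28 to 1.97 CPM. Of the macrophage markers, Cd163 was at 86.0, 89.9 and 127 CPM in WT and 52.7, 45.0 and 65.6 CPM in ++Oxtr, and C1qa, Cd68, Csf1r, Lyve1 and Mrc1 likewise did not overlap and were lower in ++Oxtr, while C1qc was at 113 to 138 CPM in WT and 90.8 to 114 CPM in ++Oxtr. In all, 6 of the 10 markers were lower without overlap, beside 7.61% of all genes. None of these markers passed the edgeR threshold, with Cd163 at an adjusted p of 0.347, whereas DESeq2 passed Cd163 (adjusted p = 0.00361), Lyve1 (0.00623) and C1qa (0.0192), beside 0.708% of all genes on the lower side. No macrophage marker was at 0, and their part in the Ccl6, Ccl9, Ccl24 and Pf4 values was not tested.

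Ccl5, also of that cluster and known from T and natural killer cells, was at 6.31, 9.16 and 4.33 CPM in WT and at 5.15, 3.89 and 20.3 CPM in ++Oxtr. Only ++Oxtr replicate 9 lay above the WT libraries. The log2 fold change was 0.57 (SE 0.66) with it and -0.54 (SE 0.35) without it. This is the library with 48.4 CPM of T and natural killer cell markers. The sums were 11.1 and 11 CPM in ++Oxtr replicates 7 and 8, below the 13.3 to 20.3 CPM of WT, so in sum only ++Oxtr replicate 9 lay above WT. No marker of that list was at 0, all 8 tested ones had a log2 fold change above 0, and their part in the Ccl5 values was not tested. The chemokine receptors of effector T cells were also highest there, Cxcr6 at 9.04 CPM against 1.11 to 3.26 and Cxcr3 at 8.03 CPM against 2.12 to 3.36.

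The neutrophil attractants that act through Cxcr2 were low in most libraries. Cxcl1 was at 2.65, 1.32 and 1.70 CPM in WT and at 3.72, 1.65 and 15.1 CPM in ++Oxtr. Replicate 9 of ++Oxtr held most of the difference, and ++Oxtr replicate 8 lay within the WT range. The log2 fold change was 1.84 (SE 0.81; edgeR adjusted p = 0.568, DESeq2 0.238), and it was 0.50 (SE 0.51) without ++Oxtr replicate 9. Without ++Oxtr replicate 8, the ++Oxtr library within the WT range, it was 2.29 (SE 0.62). DESeq2 then gave an adjusted p of 0.0290, in a fit added after the data were seen. Cxcl2 was at 1.77, 0.694 and 0.459 CPM in WT and at 0.638, 0.198 and 2.23 CPM in ++Oxtr, again with the highest value in ++Oxtr replicate 9 and with a log2 fold change of 0.05 (SE 0.87).

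Neutrophil genes differed between libraries in part along with them. Cxcr2 was at 1.53, 0.902 and 1.05 CPM in WT and at 1.86, 1.58 and 3.04 CPM in ++Oxtr, without overlap. S100a9, a granulocyte calprotectin subunit, was at 2.01, 2.01 and 6.62 CPM in WT and at 12.6, 6.32 and 21 CPM in ++Oxtr, with an adjusted p of 0.469 in edgeR and 0.0420 in DESeq2. Retnlg, another granulocyte gene, was at 1.71, 1.73 and 1.31 CPM in WT and 4.78, 1.98 and 7.22 CPM in ++Oxtr, and S100a8 at 1.12 to 2.49 and 1.84 to 7.90 CPM. These 3 markers and the ligands Cxcl1 and Cxcl2 were all highest in ++Oxtr replicate 9. Il1b, a cytokine that induces Cxcl1, was at 2.06, 0.832 and 1.18 CPM in WT and 4.14, 1.52 and 8.23 CPM in ++Oxtr. The 8 neutrophil markers summed to 31.4 to 60.4 CPM in WT and 37.9 to 67.9 CPM in ++Oxtr, and of the 6 tested 4 had a log2 fold change above 0 and 2 below it. Those below were Mmp9, at 38.0, 19.6 and 41.3 CPM in WT and 21.5, 20.7 and 15.7 CPM in ++Oxtr, and Camp, at 0.885, 0.832 and 0.918 CPM in WT and 0.106, 0.198 and 1.21 CPM in ++Oxtr. At an unadjusted edgeR p under 0.05, 3 were higher (S100a9, Retnlg and S100a8) and 1 was lower (Mmp9), beside 4.44% and 4.47% of all genes. Ly6g, a neutrophil marker, was at 0 in all 3 WT libraries and at 0.0659 to 0.266 CPM in ++Oxtr. These values rest on a few reads, and 0 reads still permit 0.177 to 0.210 CPM in the WT libraries, so no clear difference is shown. The part of the neutrophil markers in the Cxcl1 and Cxcl2 values was not tested.

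The interferon-induced ligands of Cxcr3 differed in the sign of their fitted values. Cxcl9 was at 44.9, 39.6 and 31.8 CPM in WT and at 55.9, 38.9 and 53.7 CPM in ++Oxtr, where 2 of 3 libraries lay above all WT libraries (log2 fold change 0.35, 95% interval -0.06 to 0.76). Cxcl10 was at 5.01, 5.62 and 3.60 CPM in WT and 3.45, 4.87 and 9.11 CPM in ++Oxtr, and its log2 fold change of 0.29 became -0.19 without ++Oxtr replicate 9. Cxcl11 was the 1 tested ligand whose ++Oxtr libraries all lay below the WT libraries, at 1.53, 1.39 and 1.05 CPM in WT and 0.903, 0.725 and 0.337 CPM in ++Oxtr. Its log2 fold change was -0.99 (SE 0.48; edgeR adjusted p = 0.596), from 5 to 26 reads per library. GENCODE M21 lists Cxcl11 as a polymorphic pseudogene, and 1582 of its exonic bases are shared with Gm2673 on the opposite strand, so its reads are uncertain. For Cxcl10 133 exonic bases are shared with Art3 on the opposite strand.

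Among the mixed ligands, Cx3cl1 encodes fractalkine, a membrane-bound ligand of endothelium and epithelium. The gene was at 5.07, 3.40 and 5.51 CPM in WT and at 4.89, 10.8 and 9.99 CPM in ++Oxtr, so ++Oxtr replicates 8 and 9 were above all WT libraries and ++Oxtr replicate 7 was among them. With a log2 fold change of 0.87 (SE 0.34) its edgeR adjusted p was 0.511, and DESeq2 passed it only without ++Oxtr replicate 7 (adjusted p = 0.0235). That fit was added after the data were seen and leaves out the ++Oxtr library that was among the WT ones. The 2 high libraries were also those of ++Oxtr with the higher multiciliated epithelium sums, while WT replicate 12, at 20.6 CPM of those markers, was at 5.51 CPM of Cx3cl1; their part was not tested. Cx3cr1, the receptor, was at 1.83, 5.55 and 3.60 CPM in WT and 2.98, 8.37 and 5.33 CPM in ++Oxtr.

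Cxcl16, a scavenger receptor and ligand of Cxcr6, was at 12.7, 8.74 and 12.5 CPM in WT and at 12, 10.9 and 17.3 CPM in ++Oxtr. It overlaps Zmynd15 on the opposite strand in 552 of 3021 exonic bases. Ccl22, a ligand of Ccr4 from dendritic cells, was at 1.53, 1.80 and 1.25 CPM in WT and 0.956, 1.05 and 1.96 CPM in ++Oxtr. Both overlapped between the groups.

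**Figure D4:**
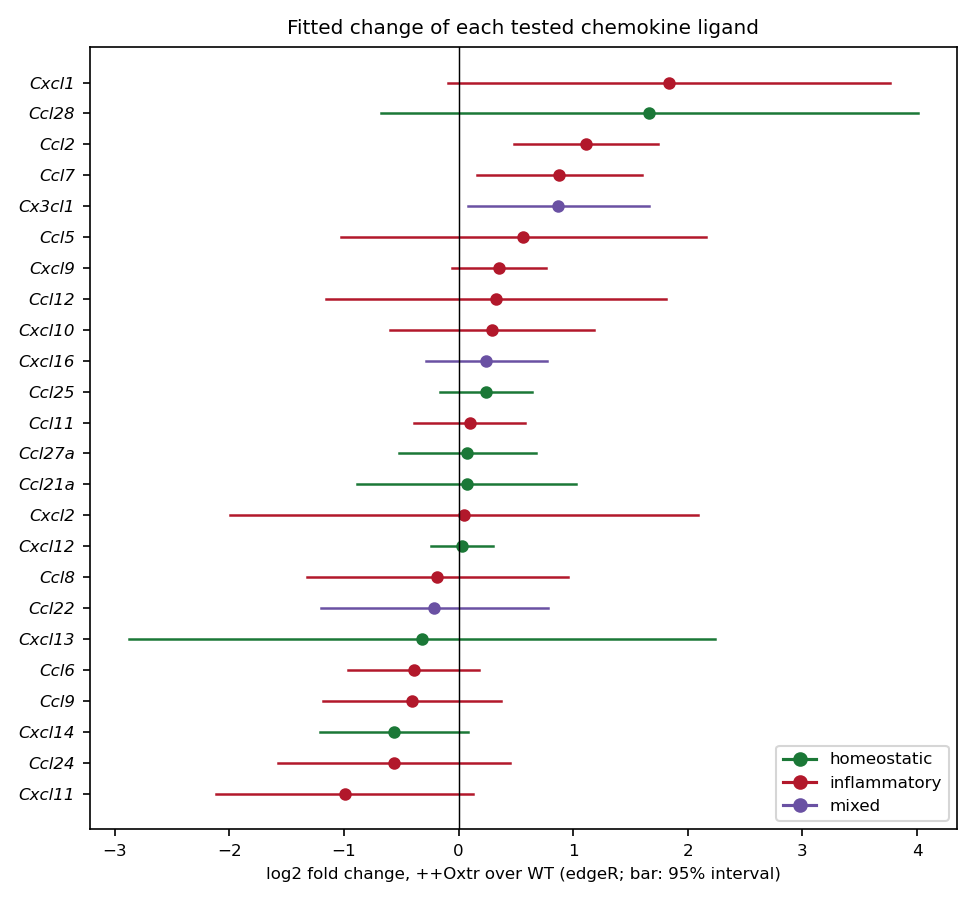
Fitted log2 fold change of ++Oxtr over WT (horizontal axis) with its 95% interval for each of the 24 tested ligands, coloured by class. The intervals of Ccl2, Ccl7 and Cx3cl1 lie above 0 before any adjustment, and those of Cxcl12, Ccl25 and Cxcl9 are among the narrowest.

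Over the family, no ligand passed an adjusted p of 0.05 by edgeR, as was so for all genes (0% of 13566). At an unadjusted edgeR p under 0.05, 3 of 24 ligands were higher (Ccl2, Ccl7 and Cx3cl1), beside 4.44% of all genes, and 0 were lower, beside 4.47%. By DESeq2 1 of 24 was higher at an adjusted p of 0.05 (Ccl2), beside 0.693% of all genes, and 0 were lower, beside 0.708% (1.4% in either direction). The libraries of the groups did not overlap in 2 ligands on the higher side (Ccl2 and Ccl7), beside 7.45% of all genes, and in 1 on the lower side (Cxcl11), beside 7.61%; 3 of 24 is thus near the share over all genes.

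By class, 5 of 7 tested homeostatic ligands had a log2 fold change above 0, with a median of 0.07. For the inflammatory class the count was 9 of 14, with a median of 0.19, and for the mixed class 2 of 3, with a median of 0.24. Over all genes tested 50.8% were above 0, with a median of 0.0040. The inflammatory median turned to -0.13 without ++Oxtr replicate 9, over the same 14 ligands. Without WT replicate 11 it was -0.04, but the filter on low counts was rerun in that fit and passed 15 inflammatory ligands. Of these 7 were above 0 and 8 below it, so the sign there depends on the added ligand as well as on the library. The highest of the 6 values was in ++Oxtr replicate 9 for 9 of 24 ligands, beside 21.1% of all genes, and in WT replicate 11 for 0 of 24, beside 16.9% of all genes. The difference between the classes was not tested.

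In the lists of chemokine receptors, atypical receptors, NF-kB genes and interferon genes no gene passed edgeR or DESeq2. Of 18 chemokine receptors 13 were tested, 8 of them above 0, with a median of 0.12, and the highest by mean FPKM were Cxcr4 at 8.20, Ccr2 at 5.84, Ccr1 at 4.26 and Cxcr3 at 2.15. Besides Cxcr2, the tested receptor without overlap was Ccr10, at 2.12, 2.01 and 1.70 CPM in WT and 3.19, 3.23 and 2.23 CPM in ++Oxtr. These 2 of 13 receptors stood beside 7.45% of all genes without overlap on the higher side. Cxcr1, which was too low to be tested, had 0 reads in each WT library and 5 in each ++Oxtr library. All 5 atypical and scavenging receptors were below 0, with a median of -0.18. Of 17 tested genes of the NF-kB pathway and its inducers and targets 11 were above 0, with a median of 0.09. At an unadjusted edgeR p under 0.05, 4 were higher (Il1b, Nfkb2, Relb and Icam1) and 0 were lower, beside 4.44% and 4.47% of all genes. Icam1, a leukocyte adhesion molecule, was at 29.1, 17.9 and 25.3 CPM in WT and 37.4, 28.5 and 49.7 CPM in ++Oxtr. Nfkb2 and Relb, subunits of the noncanonical arm of NF-kB, did not overlap, at 22.1 to 26.9 against 31.6 to 34.6 CPM and at 13.7 to 17.8 against 18.0 to 22.7 CPM in WT and ++Oxtr. These were 2 of 17, again beside 7.45% of all genes. Of 13 tested interferon genes and targets 11 were above 0, with a median of 0.21, and Gbp5, a guanylate binding protein, was at 15.2, 19.4 and 22.4 CPM in WT and 22.7, 23.6 and 31.0 CPM in ++Oxtr. Outside these lists, Tie1 of blood endothelium was at 144 to 152 CPM in WT and 128 to 133 CPM in ++Oxtr, and Cidec of adipocytes at 2406 to 3756 and 2037 to 2604 CPM. Neither passed the edgeR threshold, which no gene passed. Of 6 blood endothelium markers 1 was above 0 and 5 below it, and 2 were lower without overlap, beside 7.61% of all genes. Of 7 adipocyte markers 2 were above 0 and 5 below it, with a median of -0.04.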

How the data were processed

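Per the labels' protocols, total RNA of white adipose tissue was purified with Trizol and sequenced as NEBNext Ultra II libraries. The deposited table gives raw read counts and FPKM per gene. From these counts the deposited FPKM was recomputed as count over gene length and column sum, with a largest relative error of 5.1e-15. The submitters' processing notes name mm10, yet 4 of the 39 members had their GENCODE M21 position in the table, so positions printed are GENCODE M21's on GRCm38. No source used here gives the aligner, counter, annotation or strand setting. WT columns were matched to libraries by genotype word and number, and the ++Oxtr columns, which are headed tg, by number only.

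The quasi-likelihood test of edgeR 4.0.16 (R 4.3.3), with TMM factors, filterByExpr and robust dispersion, ran on 13566 genes with Benjamini-Hochberg adjustment over all of them and a threshold of 0.05. Single values were tested by exact 2-sided permutation on log2 of CPM plus 0.5. DESeq2 1.42.0 and limma 3.58.1 were alternatives. The fits were tested on simulated counts. No 2 libraries of a group were copies: chi-square over degrees of freedom was 18.2 to 50.7. Members, classes and lists were chosen with earlier results of these data known. The rule names every ligand, Oxtr, Pf4, Ppbp, the 5 highest receptors (1 of them is not reported here), and receptors, inducers and markers with an unadjusted p under 0.05. Further receptors and markers named beside a ligand were chosen after their values were seen. Trbc2 and Ccl21c matched no row used here.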

Additional observations from a re-analysis of the deposited data

How the results depend on the processing

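No paired analysis was possible because WT and ++Oxtr libraries carry different replicate numbers. All genes called numbered 0 and ligands called 0 in each of the edgeR and limma alternatives and each edgeR fit with 1 library left out, while DESeq2 called 190 genes (94 higher, 96 lower), 1 of them a ligand. DESeq2 with 1 library left out, added after seeing the data, called 113 to 279 genes and 0 to 2 ligands (Ccl2, Cxcl1, Cx3cl1 or, without ++Oxtr replicate 9, Cxcl13). With 1 library left out the class medians ran from 0.015 to 0.19 (homeostatic), -0.13 to 0.31 (inflammatory) and -0.005 to 0.34 (mixed). The filter on low counts was rerun in each of these fits, so the classes held 7 or 8, 14 or 15 and 3 or 4 ligands. These ranges thus mix the library left out with a change of ligands. The -0.005 was over 4 mixed ligands without WT replicate 12, where Cxcl16 was at 0.32, Cx3cl1 at 1.01 and Ccl22 at -0.33. The mixed median was -0.10 with no filter, and the homeostatic median -0.0021 and -0.0072 with limma on log2 FPKM plus 0.5 and 0.1. Other scalings moved the median of all genes by at most 0.032. Signs turned for 10 ligands, and the cause was not tested. Limma-voom with quality weights gave -0.33 for Cxcl2 and -0.12 for Ccl21a. Limma on log2 FPKM plus 0.5 gave -0.053 for Cxcl2, -0.013 for Cxcl12 and -0.0021 for Ccl27a, and with plus 0.1 these were -0.20, -0.013 and -0.0072. With 1 library left out, in edgeR or DESeq2, the log2 fold change ran from -0.14 to 1.196 for Ccl12, -0.23 to 0.61 for Ccl21a, -0.046 to 0.30 for Ccl11, -1.21 to 0.82 for Cxcl2, -0.051 to 0.12 for Cxcl12, -0.55 to 0.43 for Ccl8, -2.91 to 0.21 for Cxcl13, -0.19 to 0.23 for Ccl27a, -0.19 to 0.56 for Cxcl10 and -0.54 to 0.95 for Ccl5. Among the tested ligands the fewest reads were behind Cxcl2, at 3 to 33 per library, and Cxcl11, at 5 to 26.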

Other observations

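Position in the genome grouped the family into 7 clusters of neighbours (under 1 Mb apart on GRCm38), and levels differed widely inside them. On chromosome 5, from 90759360 to 90905938, Cxcl5, Cxcl3, Cxcl15, Cxcl1 and Cxcl2 lie together, and only Cxcl1 and Cxcl2 passed the filter on low counts. On chromosome 4, from 41769467 to 42773993, Ccl27a and Ccl21a passed the filter among 6 members. On chromosome 8, from 94745590 to 94812036, Ccl22, Cx3cl1 and Ccl17 are neighbours, and Cx3cl1 was the one on the higher side in ++Oxtr while Ccl22 had a log2 fold change of -0.21 (95% interval -1.20 to 0.78). Ccl24 and Ccl26 share a cluster on chromosome 5, with 61 to 268 reads per library for Ccl24 and at most 2 for Ccl26.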
